A study of Homo sapiens with 6 samples.

Results

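The genes described here are 37 genes of protein folding in the endoplasmic reticulum (ER), of the unfolded protein response and of ER-associated degradation (ERAD), out of 20683 genes listed in the counts. They were taken by symbol from a list of pathway members, which was drawn up with earlier results of these data known, and all 37 symbols were found. By role they comprise a chaperone group of 11 genes, 7 disulfide isomerases and 3 genes of the calnexin and calreticulin lectin cycle. The others are a sensor group of 4 genes, 10 ERAD genes and 2 subunits of the Sec61 translocon. The chaperone group holds chaperones of the HSP70 and HSP90 families and their co-chaperones, with MANF and CRELD2 placed among them. The sensor group holds stress sensors and transcription factors, with WFS1 placed among them.

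The study used HT-1080, an established human fibrosarcoma line, and asked which genes change after 24 h with an inhibitor of IRAK4, a kinase that relays signals from Toll-like and interleukin-1 receptors. The inhibitor group received SLV-8472-01, and the labels put its concentration at 5 mM, with no second source here for that unit. The control group received 0.1% DMSO for 24 h, and each group had 3 libraries, called biological replicates by the series. RNA was read with the Ion AmpliSeq Transcriptome panel, in which each gene is counted through a short PCR product, so levels are compared between libraries and never between genes. Levels are given as CPM, the count per 1000000 counts of its library after scaling with the TMM factors of edgeR.

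Proteins bound for secretion or for membranes enter the ER through the Sec61 channel, fold there with the help of chaperones, disulfide isomerases and a sugar-reading lectin cycle, and are sent by ERAD to the proteasome if they fail. When unfolded protein builds up, the sensors IRE1 (encoded by ERN1), ATF6 and PERK (encoded by EIF2AK3) start the unfolded protein response, in which the factors XBP1, ATF6 and ATF4 raise the transcription of many of these genes. XBP1 and ATF6, with the factor NF-Y, are known to act through the ER stress element, whose letters are CCAAT, any 9 bases, then CCACG, and through a second form, ATTGG, any base, then CCACG.

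Upstream sequences are shown for the 5 genes that were lower in the inhibitor libraries and for 2 that hold an ER stress element but did not pass the test, so that the elements can be read beside the values. They are the 250 bases before the annotated start in RefSeq (build GRCh38.p14), in the direction of the gene, and capitals mark a match to either form of the element or to TGACGTGG, the core of the XBP1 and ATF6 site known as UPRE. HSPA5 is at chr9:125241344-125241593 on the minus strand, XBP1 at chr22:28800570-28800819 on the minus strand and HERPUD1 at chr16:56931892-56932141 on the plus strand. DNAJB9 is at chr7:108569624-108569873 on the plus strand and ERN1 at chr17:64130145-64130394 on the minus strand. HSP90B1 is at chr12:103930160-103930409 on the plus strand and CALR at chr19:12938359-12938608 on the plus strand.
HSPA5: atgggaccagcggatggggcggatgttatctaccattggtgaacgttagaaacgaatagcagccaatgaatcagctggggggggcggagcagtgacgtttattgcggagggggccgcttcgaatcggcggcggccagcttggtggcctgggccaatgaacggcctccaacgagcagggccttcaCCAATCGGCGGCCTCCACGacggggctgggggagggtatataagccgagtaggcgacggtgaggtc
XBP1: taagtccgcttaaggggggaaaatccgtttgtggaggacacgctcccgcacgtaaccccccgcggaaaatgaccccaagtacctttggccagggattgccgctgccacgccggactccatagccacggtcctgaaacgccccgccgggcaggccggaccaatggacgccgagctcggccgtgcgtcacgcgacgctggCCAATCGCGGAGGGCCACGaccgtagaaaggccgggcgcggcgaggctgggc
HERPUD1: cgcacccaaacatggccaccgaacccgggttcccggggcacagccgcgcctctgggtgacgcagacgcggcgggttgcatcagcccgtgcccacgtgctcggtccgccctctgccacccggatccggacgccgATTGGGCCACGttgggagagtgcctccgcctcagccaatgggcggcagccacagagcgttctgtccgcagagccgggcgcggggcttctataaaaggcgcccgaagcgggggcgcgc
DNAJB9: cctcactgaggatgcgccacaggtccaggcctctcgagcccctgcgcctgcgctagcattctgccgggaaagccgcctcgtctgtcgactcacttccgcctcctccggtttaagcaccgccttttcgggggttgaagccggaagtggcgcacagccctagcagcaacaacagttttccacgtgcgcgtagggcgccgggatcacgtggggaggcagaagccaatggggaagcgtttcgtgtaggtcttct
ERN1: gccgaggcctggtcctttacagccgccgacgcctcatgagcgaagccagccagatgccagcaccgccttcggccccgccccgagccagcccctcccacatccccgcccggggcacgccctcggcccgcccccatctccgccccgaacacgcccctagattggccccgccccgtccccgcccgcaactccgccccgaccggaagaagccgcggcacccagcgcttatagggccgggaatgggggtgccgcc
HSP90B1: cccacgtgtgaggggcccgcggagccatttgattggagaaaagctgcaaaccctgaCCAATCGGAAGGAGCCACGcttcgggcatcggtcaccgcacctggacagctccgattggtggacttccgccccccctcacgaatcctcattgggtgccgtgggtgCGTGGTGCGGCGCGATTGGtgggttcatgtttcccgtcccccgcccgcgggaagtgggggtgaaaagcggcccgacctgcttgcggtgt
CALR: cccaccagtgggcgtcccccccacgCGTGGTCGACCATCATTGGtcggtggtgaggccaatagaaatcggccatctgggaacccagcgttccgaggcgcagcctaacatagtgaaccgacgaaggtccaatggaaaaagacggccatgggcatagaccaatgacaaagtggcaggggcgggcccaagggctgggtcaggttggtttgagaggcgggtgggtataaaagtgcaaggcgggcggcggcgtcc

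In these lines HSPA5 has its element 66 to 48 bases before the start and XBP1 52 to 34 bases before it, while HERPUD1 has the second form 117 to 107 bases before its start. HSP90B1 holds 2 elements, at 194 to 176 bases and, on the other strand, at 89 to 71 bases before its start. CALR holds its element on the other strand, 225 to 207 bases before the start. Neither DNAJB9 nor ERN1 has a capital, so none of the 3 motifs is in its window with exact letters.

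Library totals ranged from 9162281 to 13184553 counts. The DMSO libraries differed from each other more than the inhibitor libraries did, and DMSO 3 stood apart: the median absolute log2 difference over genes was 0.317 between DMSO 3 and DMSO 1 and 0.248 between DMSO 3 and DMSO 2, against 0.156 between DMSO 1 and DMSO 2 and 0.122 to 0.13 among inhibitor libraries. Across 9215 genes, the rank correlation of a library's deviation from its group mean with transcript GC content was -0.492 in DMSO 3 and 0.536 in DMSO 1. Results are therefore given with all 6 libraries, with values without DMSO 3 beside those whose call changed and, for the other members, together after the roles. Of 15 mesenchymal markers, the summed level was 11028 to 11499 CPM in inhibitor libraries and 10685 to 12418 CPM in DMSO libraries. For 10 epithelial markers the sums were 2.45 to 3.48 and 1.33 to 2.13 CPM, with CDH1, KRT5 and KRT20 at 0 in every library, and for 6 endothelial markers 2.58 to 3.59 and 2.82 to 4.50 CPM, with VWF and CLDN5 at 0. For 9 blood cell markers the sums were 247 to 289 and 319.7 to 369 CPM, nearly all from CD68, which encodes a lysosomal protein, with PTPRC, CD3E and HBB among those at 0 in every library. The epithelial sum was higher and the blood cell sum lower in every inhibitor library than in any DMSO library, and 5 of 14 tested mesenchymal markers were lower in the same sense, against 11.8% of all tested genes. Of these 14 markers 0 passed the edgeR test with all libraries (3 lower and 0 higher before adjustment, with DESeq2 calling 2 and limma-voom 0), and 6 passed as lower without DMSO 3. The part of these marker shifts and of DMSO 3 in single results was not tested beyond the fits that follow.

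Of the 37 genes, 35 had enough counts to be tested. DERL3, a Derlin of the ERAD channel, had 0 counts in every library, which allows up to 3 counts (0.228 to 0.327 CPM, by library). DNAJC10 (ERdj5), a J-domain reductase, had 3 counts in all, in DMSO 2, so no level was read for it. Among the 35, 5 were lower in the inhibitor libraries and 0 were higher by edgeR's quasi-likelihood test at an adjusted p of 0.05. They were HSPA5, DNAJB9, ERN1, XBP1 and HERPUD1. Over all 11216 genes tested, 3.87% passed the test and 1.92% passed it as lower, with 1.95% as higher. Of the 35 genes, 30 had a log2 fold change below 0 and 5 above it, with a median of -0.21 and a range from -1.41 to 0.31, against a median of -0.0040 over all genes tested. In 13 of the 35 genes every inhibitor library was below every DMSO library, against the same 11.8% of all tested genes, and in 2 (ATF6 and OS9) every inhibitor library was above, against 13.7%. At an unadjusted p of 0.05, 14 of the 35 were lower and 0 higher, against 1035 lower and 1153 higher of all 11216 tested genes (19.5% in both directions together). DESeq2 called 8 lower and 0 higher, and limma-voom called 6 lower and 0 higher. Of all 11216 genes tested, DESeq2 called 305 lower and 289 higher, and limma-voom 216 lower and 228 higher.

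**Figure D1:**
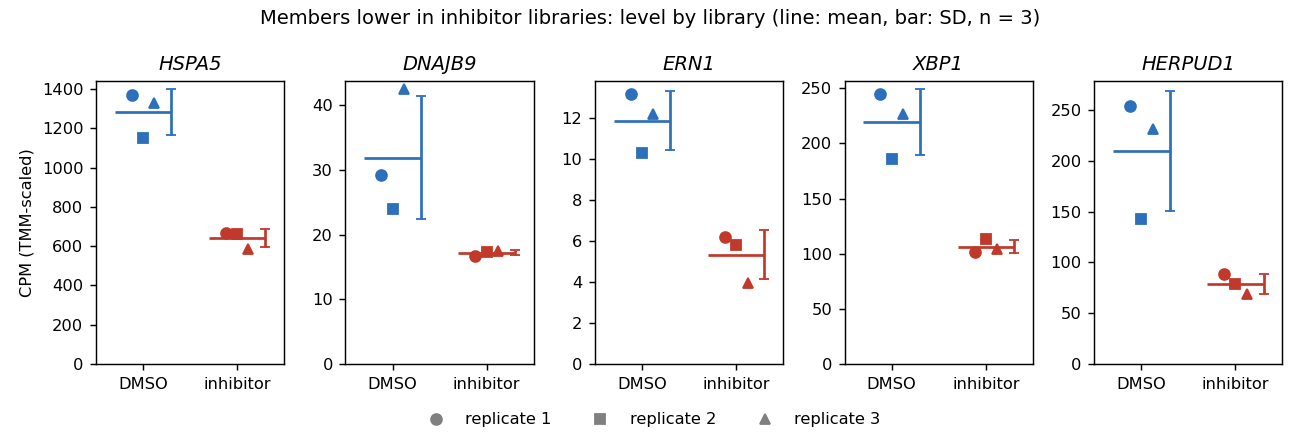
Level in CPM of the 5 genes that passed the test as lower, in the 3 DMSO (blue) and 3 inhibitor (red) libraries, with the mean as a line and the SD as a bar (n = 3), each panel on its own axis from 0. Every red point lies below every blue point in all 5 panels, and DMSO 3 is the highest DMSO point for DNAJB9 alone.

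The best known of the chaperones, HSPA5 (BiP), is the HSP70 of the ER lumen and holds the stress sensors inactive when it is bound to them. HSPA5 was at 669.9, 664 and 588 CPM in inhibitor 1 to 3 and at 1372, 1153 and 1330.3 CPM in DMSO 1 to 3. The groups did not overlap, and the highest inhibitor library was well under the lowest DMSO library. The means were 641 ± 45.6 and 1285 ± 116 CPM (SD, n = 3 each), so that HSPA5 fell to 0.499 of its DMSO level (log2 fold change -1.0, SE 0.115, edgeR adjusted p = 0.000227). It stayed below the threshold of adjusted p when any 1 of the 6 libraries was left out, with log2 fold changes from -1.08 to -0.95. In these bulk samples fewer cells of a kind and less RNA per cell cannot be told apart, here and for every gene that follows.

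DNAJB9 (ERdj4), a J-domain co-chaperone of HSPA5 that represses IRE1, was at 16.7, 17.3 and 17.5 CPM in inhibitor libraries and at 29.3, 24.0 and 42.4 CPM in DMSO libraries. The inhibitor values lay close together and below all DMSO values, of which DMSO 3 was the highest by far. DNAJB9 fell, with log2 fold change -0.88, SE 0.187, edgeR adjusted p = 0.0175. This call was lost when inhibitor 1, 2 or 3 was left out, with an adjusted p of up to 0.119, and without DMSO 3 the log2 fold change was -0.65 (adjusted p = 0.000705).

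The other 8 tested chaperones and co-chaperones did not pass the test with all 6 libraries. In 5 of them, HSP90B1, HYOU1, DNAJB11, SDF2L1 and CRELD2, every inhibitor library was below every DMSO library, against 11.8% of all tested genes. HSP90B1 (GRP94), the HSP90 of the ER lumen, was at 2188, 2228 and 1982 CPM in inhibitor libraries and at 2599.8, 2593 and 2819 CPM in DMSO libraries (log2 fold change -0.32, SE 0.104, edgeR adjusted p = 0.101). Its groups were narrow and apart, with a difference smaller than that of HSPA5. HYOU1 (GRP170), a large relative of HSP70 that exchanges the nucleotide of HSPA5, was at 356, 354 and 337 CPM against 546, 453 and 411 CPM (log2 fold change -0.43, SE 0.124, edgeR adjusted p = 0.0709). Here the DMSO libraries were spread, with DMSO 1 highest and DMSO 3 nearest to the inhibitor libraries.

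DNAJB11 (ERdj3), a co-chaperone that hands unfolded clients to HSPA5, was at 224, 203 and 205 CPM in inhibitor libraries and at 339, 257 and 238 CPM in DMSO libraries (log2 fold change -0.40, SE 0.139, edgeR adjusted p = 0.126). SDF2L1, which forms a complex with DNAJB11, was at 5.47, 4.99 and 5.20 CPM against 8.21, 7.99 and 6.42 CPM (log2 fold change -0.54, SE 0.183, edgeR adjusted p = 0.119). CRELD2, an ER stress-inducible protein, was at 58.4, 60.7 and 67.0 CPM against 88.9, 84.3 and 74.9 CPM (log2 fold change -0.42, SE 0.125, edgeR adjusted p = 0.0818). In all 3 genes DMSO 3 was the lowest DMSO library and the closest to the inhibitor values. Without DMSO 3 the adjusted p was 0.0159 for HSP90B1, 0.000202 for HYOU1, 0.000739 for DNAJB11, 0.0135 for SDF2L1 and 0.00091 for CRELD2, so that 7 of the 10 chaperones passed as lower, where 11.1% of all tested genes did. In each other fit that left out a library, 1 or 2 of the 10 passed. Without DMSO 1 the log2 fold change shrank to -0.32 for HYOU1 and -0.24 for DNAJB11 (edgeR adjusted p = 0.162 and 0.317).

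MANF, a secreted ER protein that binds HSPA5, was at 219.7, 183 and 177 CPM in inhibitor libraries and at 246, 216 and 256 CPM in DMSO libraries, with inhibitor 1 above DMSO 2 (log2 fold change -0.31, SE 0.127, edgeR adjusted p = 0.197). SIL1, a nucleotide exchange factor of HSPA5, had overlapping groups and a log2 fold change of -0.18 (edgeR adjusted p = 0.58). DNAJC3 (p58IPK), a co-chaperone that also inhibits eIF2 kinases, was at 59.2, 54.2 and 50.9 CPM against 39.7, 53.8 and 66.2 CPM, where DMSO 1 was lowest and DMSO 3 highest of all 6 libraries (log2 fold change 0.05, SE 0.166, edgeR adjusted p = 0.914). The median log2 fold change of the 10 tested chaperones was -0.41.

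**Figure D2:**
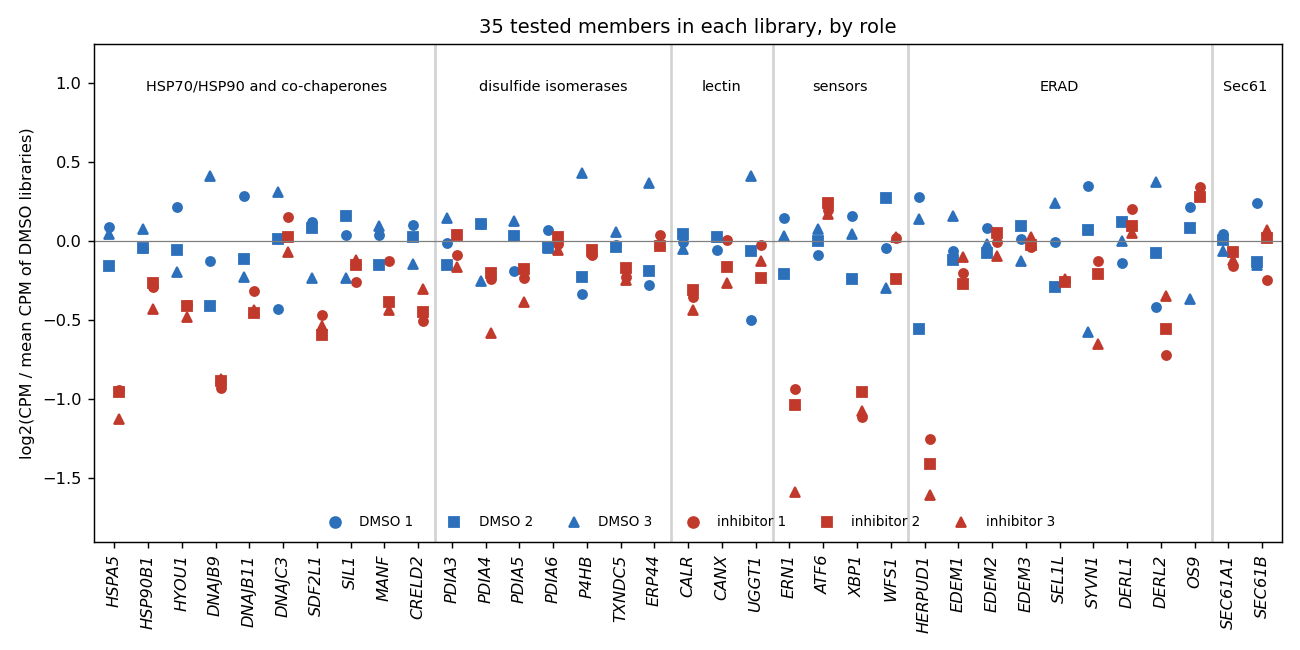
Each tested gene in each library, as log2 of CPM over the mean CPM of the 3 DMSO libraries, grouped by role. DMSO libraries are blue and inhibitor libraries red, with 1 marker shape per replicate number. HSPA5, DNAJB9, ERN1, XBP1 and HERPUD1 have their red points farthest below 0, and among the disulfide isomerases TXNDC5 alone has every red point below every blue one.

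The disulfide isomerases form and rearrange the disulfide bonds of folding proteins, and 0 of the 7 passed the test in either direction. At an unadjusted p of 0.05, 1 of the 7 (PDIA4) was lower and 0 higher, against 1035 and 1153 of all 11216 tested genes. DESeq2 and limma-voom called 0 of the 7. Their median log2 fold change was -0.068. The level of P4HB (PDI), the founding member of the family, was 1270.1, 1301 and 1291 CPM in inhibitor libraries and 1073, 1153 and 1823 CPM in DMSO libraries. All 3 inhibitor libraries lay between DMSO 2 and DMSO 3, so the direction rested on DMSO 3: the log2 fold change was -0.07 with all libraries and 0.19 without DMSO 3 (edgeR adjusted p = 0.866 and 0.126).

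PDIA4 (ERp72) was at 67.6, 69.4 and 53.4 CPM in inhibitor libraries and at 86.2, 86.0 and 67.2 CPM in DMSO libraries, and the groups overlapped because DMSO 3 was under inhibitor 1 and 2 (log2 fold change -0.33, SE 0.145, edgeR adjusted p = 0.227). Without DMSO 3, PDIA4 passed as lower (log2 fold change -0.45, adjusted p = 0.00376). TXNDC5 (ERp46) was at 486, 505 and 480.2 CPM against 559, 554 and 592 CPM, the 1 isomerase whose groups did not overlap (log2 fold change -0.21, SE 0.106, edgeR adjusted p = 0.286). PDIA6 (P5) was at 782, 804 and 759 CPM against 829, 770.4 and 768 CPM with overlap (log2 fold change -0.01, SE 0.105, edgeR adjusted p = 0.962).

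PDIA3 (ERp57), which works with calnexin and calreticulin on glycoproteins, had overlapping groups and a log2 fold change of -0.07 (edgeR adjusted p = 0.809). PDIA5 had a log2 fold change of -0.26 (edgeR adjusted p = 0.279). ERP44, which retains client proteins by thiol bonds between the Golgi and the ER, was at 161, 153 and 155 CPM against 129, 137 and 203 CPM, again with every inhibitor library between DMSO 2 and DMSO 3 (log2 fold change 0.00 with all libraries and 0.22 without DMSO 3, edgeR adjusted p = 0.992 and 0.116).

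Calreticulin, calnexin and the glucosyltransferase UGGT1 hold glycoproteins in the folding cycle by their sugar tags, and 0 of these 3 passed the test. At an unadjusted p of 0.05, 1 of the 3 (CALR) was lower and 0 higher, against 1035 and 1153 of all 11216 tested genes. DESeq2 and limma-voom each called CALR lower. CALR was at 4305, 4427 and 4068 CPM in inhibitor libraries and at 5476, 5670.2 and 5309.5 CPM in DMSO libraries (log2 fold change -0.36, SE 0.0987, edgeR adjusted p = 0.0577). The 2 groups were apart, and without DMSO 3 the log2 fold change was -0.40 (adjusted p = 0.00112). CANX, the membrane-bound counterpart, was at 1628, 1445 and 1347 CPM against 1555, 1648 and 1648 CPM, with overlap (log2 fold change -0.13, SE 0.109, edgeR adjusted p = 0.548). UGGT1 was at 150.4, 130.3 and 140.0 CPM against 108, 147 and 203 CPM, and the DMSO libraries spanned the inhibitor libraries on both sides (log2 fold change -0.12, SE 0.181, edgeR adjusted p = 0.773, and 0.12 without DMSO 3).

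Among the 4 sensors and factors, ERN1 and XBP1, which form the IRE1 branch, fell and ATF6 and WFS1 did not pass the test. Of all tested genes, 1.92% passed as lower. IRE1, the product of ERN1, is the kinase and RNase that splices XBP1 messenger RNA. ERN1 was at 6.21, 5.79 and 3.95 CPM in inhibitor libraries and at 13.1, 10.3 and 12.2 CPM in DMSO libraries. The highest inhibitor library was below the lowest DMSO library, and the means were 5.32 ± 1.2 and 11.9 ± 1.46 CPM (SD, n = 3 each). ERN1 fell (log2 fold change -1.14, SE 0.197, edgeR adjusted p = 0.00552), and it passed without any 1 of the 6 libraries (adjusted p up to 0.0446).

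XBP1 encodes the transcription factor made from the spliced messenger RNA. XBP1 was at 102, 113 and 104 CPM in inhibitor libraries and at 245, 186 and 227 CPM in DMSO libraries. Again no value overlapped, and the means were 106 ± 6.25 and 219 ± 29.9 CPM (SD, n = 3 each). XBP1 fell (log2 fold change -1.04, SE 0.131, edgeR adjusted p = 0.000482), and passed without any 1 of the 6 libraries. The count is 1 number per gene, so spliced and unspliced XBP1 messenger RNA were not told apart.

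ATF6, the sensor that is cut in the Golgi to release a transcription factor, was at 138, 142 and 136 CPM in inhibitor libraries and at 113, 120.3 and 127 CPM in DMSO libraries. All 3 inhibitor values were above all DMSO values, but the difference did not pass (log2 fold change 0.21, SE 0.115, edgeR adjusted p = 0.346). WFS1 (wolframin), an ER membrane protein that restrains ATF6 signalling, had overlapping groups and a log2 fold change of -0.07 (edgeR adjusted p = 0.873). The sensor of the PERK branch, EIF2AK3, is not one of the 37 genes, and its log2 fold change was -0.12 (SE 0.18, edgeR adjusted p = 0.76).

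Among the ERAD genes, 1 of the 9 tested was lower and 0 higher, against 1.92% and 1.95% of all tested genes. At an unadjusted p of 0.05, 2 of the 9 (HERPUD1 and DERL2) were lower and 0 higher, against 1035 and 1153 of all 11216 tested genes. DESeq2 and limma-voom each called 1 lower and 0 higher. HERPUD1 (HERP), an ER membrane protein that helps to assemble the HRD1 ubiquitin ligase complex, had the largest fold change of the 35 tested genes. HERPUD1 was at 88.2, 78.9 and 68.7 CPM in inhibitor libraries and at 254, 143 and 231 CPM in DMSO libraries. DMSO 2 was well below DMSO 1 and DMSO 3, and still above every inhibitor library. The means were 78.6 ± 9.74 and 209.5 ± 59.0 CPM (SD, n = 3 each), and HERPUD1 fell (log2 fold change -1.41, SE 0.187, edgeR adjusted p = 0.000745). It passed without any 1 of the 6 libraries, with log2 fold changes from -1.63 to -1.25.

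The partners of HERPUD1 in that complex did not pass with all libraries. SYVN1 (HRD1), the ubiquitin ligase, was at 21.8, 20.6 and 15.2 CPM in inhibitor libraries and at 30.3, 25.0 and 15.99 CPM in DMSO libraries, where replicate 3 was the lowest library of both groups (log2 fold change -0.32, SE 0.209, edgeR adjusted p = 0.435, and -0.54 with adjusted p = 0.00673 without DMSO 3). SEL1L, the adaptor of HRD1, was at 114, 114 and 115 CPM against 135, 111 and 161 CPM, and the narrow inhibitor values lay inside the DMSO range (log2 fold change -0.25, SE 0.138, edgeR adjusted p = 0.348). DERL2, a Derlin that moves clients through the membrane, was at 9.88, 11.1 and 12.8 CPM against 12.2, 15.5 and 21.1 CPM (log2 fold change -0.52, SE 0.199, edgeR adjusted p = 0.162). Its DMSO libraries were spread, and the gene passed as lower when DMSO 1, the lowest of them, was left out (adjusted p = 0.042). DERL1 had a log2 fold change of 0.12 (edgeR adjusted p = 0.647).

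OS9, a lectin that brings misfolded glycoproteins to SEL1L, was at 126, 121 and 123 CPM in inhibitor libraries and at 116, 106 and 77.3 CPM in DMSO libraries. All inhibitor values were above all DMSO values, by a small margin over DMSO 1 and a wide one over DMSO 3, and the difference did not pass (log2 fold change 0.31, SE 0.146, edgeR adjusted p = 0.267, and 0.14 without DMSO 3). The mannosidase-like proteins EDEM1, EDEM2 and EDEM3, which trim glycoproteins for ERAD, had overlapping groups and log2 fold changes of -0.19, -0.01 and -0.01 (edgeR adjusted p = 0.418, 0.971 and 0.973).

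SEC61A1, the pore subunit of the translocon, was at 1557, 1659 and 1596 CPM in inhibitor libraries and at 1788, 1747 and 1667 CPM in DMSO libraries, with inhibitor 2 just below DMSO 3 and no overlap (log2 fold change -0.11, SE 0.101, edgeR adjusted p = 0.597). SEC61B, a small subunit, was at 117, 141 and 146 CPM against 165, 127 and 125 CPM, with overlap (log2 fold change -0.04, SE 0.141, edgeR adjusted p = 0.904). Of the 2 subunits, 0 passed in either direction, also at an unadjusted p of 0.05 and by DESeq2 and limma-voom.

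Leaving out DMSO 3 raised the number of genes that passed in the whole table as well as among the 37. Without it, 13 of the 35 tested genes were lower and 0 higher, against 11.1% of 11386 tested genes that were lower and 10.8% that were higher. At an unadjusted p of 0.05 in that edgeR fit, 15 were lower and 3 higher, against 17.4% and 17.3% of all genes tested. The 13 were HSPA5, HSP90B1, HYOU1, DNAJB9, DNAJB11, SDF2L1, CRELD2, PDIA4, CALR, ERN1, XBP1, HERPUD1 and SYVN1, and the median log2 fold change of the 35 was -0.20. The medians with and without DMSO 3 were close. Among members that passed in neither fit, the log2 fold change without DMSO 3 was -0.32 for DERL2 (edgeR adjusted p = 0.156), -0.12 for SEL1L, -0.11 for EDEM1 and 0.14 for OS9, each closer to 0 than with all libraries. It was -0.29 for SIL1, -0.20 for WFS1, -0.13 for SEC61B, -0.08 for EDEM3, -0.05 for PDIA6, -0.03 for EDEM2 and 0.22 for DNAJC3, each farther from 0, and 0.00 for PDIA3. For MANF it was -0.27, for PDIA5 -0.20, for TXNDC5 -0.20 and for DERL1 0.11, also closer to 0. For ATF6 it was 0.23 (edgeR adjusted p = 0.0946) and for SEC61A1 -0.16, also farther from 0. CANX was nearly unchanged at -0.14. With the GC trend of each library removed and all 6 libraries kept, 7 of the 35 were lower and 0 higher. They were the 5 named above with HSP90B1 and HYOU1. SDF2L1, DNAJB11, CRELD2, PDIA4, CALR and SYVN1 did not pass in that fit. Their transcript GC content was 66.2%, 43.4%, 60.9%, 54.1%, 55.8% and 57.3%, with 42.8% for HSP90B1 and 55.7% for HYOU1. The fit without DMSO 3 kept DMSO 1, whose deviation had a rank correlation of 0.536 with GC content. No fit left out DMSO 3 and removed the GC trend together, so the part of GC content in the added calls was not tested.

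**Figure D3:**
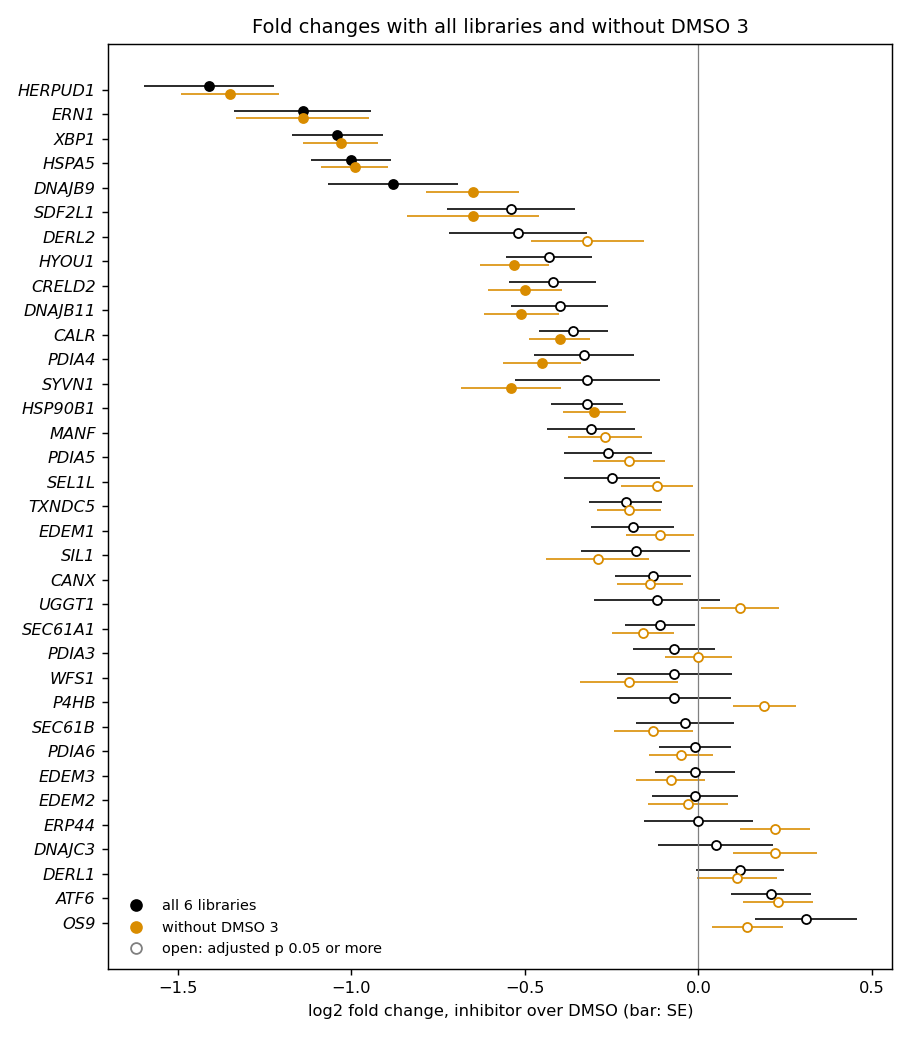
Log2 fold change of each tested gene, inhibitor over DMSO, with its SE as a bar, from all 6 libraries (black) and without DMSO 3 (orange). Filled points have an adjusted p under 0.05 and open points do not. HERPUD1, ERN1, XBP1, HSPA5 and DNAJB9 are filled in both, and 8 further genes are filled in orange alone.

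Sequence features were read from RefSeq promoter windows of 300 bases, from 250 before to 50 after the start, which were matched for 34 of the 37 genes. PDIA3, DERL1 and DERL3 had no entry. All 4 motifs were sought as exact letters on both strands. The ER stress element was present in 6 of the 34 windows (17.6%), those of HSPA5, HSP90B1, CRELD2, CALR, CANX and XBP1, and in 0.159% of the windows of 8801 tested genes. The second form was in 3 of the 34 (8.82%), HYOU1, SDF2L1 and HERPUD1, against 0.114% of the windows of tested genes. TGACGTGG was in 2 of the 34 (5.88%), HYOU1 and DNAJC10, against 1.01%. In HYOU1 it overlaps 1 of that gene's 2 matches to the second form. TGATGNAA, a core of the site bound by ATF4 and its partners, was in 1 of the 34 (2.94%), HERPUD1, at 176 to 169 bases before the start on the other strand, against 1.65%.

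The 9 genes with either form of the element ranged from HERPUD1, at a log2 fold change of -1.41, to CANX, at -0.13. The 6 with the first form had a median log2 fold change of -0.39, and the 27 tested genes whose window lacked it had a median of -0.19. Of the 5 genes that passed the test, HSPA5 and XBP1 held the first form, HERPUD1 the second, and DNAJB9 and ERN1 held neither form. HSP90B1 and CALR hold the first form and differed less between the groups than ERN1 and DNAJB9. These matches describe letters only, and whether a factor bound there was not measured. The genes were listed as members of a response known to act through these elements, so the shares describe them and test nothing.

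**Figure D4:**
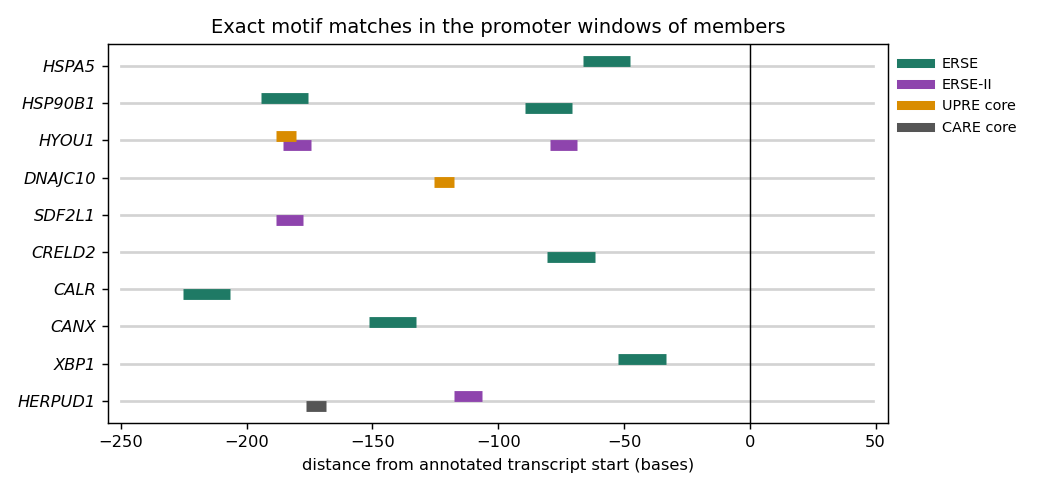
Position of exact matches to the ER stress element (ERSE), its second form (ERSE-II), TGACGTGG (UPRE core) and TGATGNAA (CARE core) in the windows of the 10 genes with any match, by distance in bases from the annotated start. Bars above each grey line are on the strand of the gene and bars below it on the other strand. The elements of HSPA5 and XBP1 are the closest to the start.

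The rest of the ER pathway was read from 4 further lists: oxidative folding, ERAD, translocon with glycosylation, and other regulators of the unfolded protein response. Of their 161 genes, 147 were tested, 0 were lower and 1 was higher, with a median log2 fold change of -0.0070. At an unadjusted p of 0.05, 16 of the 147 were lower and 7 higher, against 1035 and 1153 of all 11216 tested genes. DESeq2 called 2 lower and 2 higher, and limma-voom 0 lower and 1 higher. By list, 0 of 30 oxidative folding genes, 0 of 39 translocon and glycosylation genes and 0 of 42 regulators passed the edgeR test in either direction, and 1 of 36 ERAD genes did. Their median log2 fold changes were 0.0090 for oxidative folding, 0.00 for translocon and glycosylation, -0.049 for regulators and 0.059 for ERAD. The 1 gene was UBE2G1, which encodes a ubiquitin-conjugating enzyme, at 94.9, 110.3 and 111 CPM in inhibitor libraries and 68.4, 82.9 and 72.3 CPM in DMSO libraries (log2 fold change 0.50, SE 0.128, edgeR adjusted p = 0.0449). It passed in 1 of the 6 fits that left out a library, the one without DMSO 3. Without DMSO 3, 18 of these genes (12.2%) were lower and 13 (8.84%) higher, near the 11.1% and 10.8% of all tested genes. ERO1A, the oxidase that recharges the disulfide isomerases, had a log2 fold change of -0.14 (edgeR adjusted p = 0.683), and 0.05 without DMSO 3.

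The PERK and ATF4 arm crosses these genes, since HERPUD1 and HSPA5 are known to respond to ATF4 as well. Of its 10 tested genes, 8 were lower and 0 higher, against 1.92% and 1.95% of all tested genes. Among the 8 were ATF4 itself (log2 fold change -0.78, SE 0.126, edgeR adjusted p = 0.00347), CHAC1 (log2 fold change -2.70), ATF3 (-2.29) and DDIT3 (CHOP). DDIT3 had 9 counts summed over inhibitor libraries and 72 summed over DMSO libraries. EIF2AK3 and ASNS were the 2 that did not pass, with ASNS at -0.60 (edgeR adjusted p = 0.0741) and at -0.36 without DMSO 3, where it passed (adjusted p = 0.0203). Before adjustment, 9 of the 10 were lower and 0 higher at a p of 0.05, against 1035 and 1153 of all 11216 tested genes. ATF4 did not pass without inhibitor 2 (edgeR adjusted p = 0.0513).

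Relatives of the ER chaperones in the cytosol and in mitochondria were read beside them. HSPA8 (HSC70), the constitutive HSP70 of the cytosol, was at 2072, 2225 and 1862 CPM in inhibitor libraries and at 1278, 1494 and 1298 CPM in DMSO libraries, so that every inhibitor value was above every DMSO value (log2 fold change 0.60, SE 0.114, edgeR adjusted p = 0.00938). This call was lost without inhibitor 1 and inhibitor 2 in turn (edgeR adjusted p up to 0.106). The stress-induced HSPA1A and HSPA1B had log2 fold changes of 1.62 and 1.66 (edgeR adjusted p = 2.31e-05 and 0.000105), with the caution that these near-identical copies can share reads. DNAJA1, a cytosolic J-domain partner of HSP70, was higher too (log2 fold change 0.73, SE 0.107, edgeR adjusted p = 0.00173). In all, 4 of 17 tested cytosolic HSP70, HSP90 and co-chaperone genes were higher (1.95% of all tested genes were) and 0 lower, with 1 lower and 6 higher at an unadjusted p of 0.05, and DESeq2 and limma-voom each called 4 higher and 0 lower. Without DMSO 3, 7 were higher and 1 lower.

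The mitochondrial HSP70, HSPA9, had a log2 fold change of -0.06 (edgeR adjusted p = 0.804). Of 8 mitochondrial chaperone genes 0 passed in either direction, with 0 lower and 3 higher at an unadjusted p of 0.05, and DESeq2 called 0 lower and 1 higher and limma-voom 0. Without DMSO 3, 3 were higher and 2 lower. The cytosolic HSP90 genes HSP90AA1 and HSP90AB1 both had a log2 fold change of 0.15 (edgeR adjusted p = 0.589 and 0.586), which became 0.24 and 0.02 without DMSO 3, still short of the threshold. Mitochondrial TRAP1 had -0.21 (edgeR adjusted p = 0.416), and -0.34 without DMSO 3, where it passed as lower (adjusted p = 0.014). HSPH1 (HSP110), the cytosolic relative of HYOU1, was at 236, 195 and 244 CPM in inhibitor libraries and at 127, 170.3 and 204 CPM in DMSO libraries, with overlap (log2 fold change 0.43, SE 0.161, edgeR adjusted p = 0.151). Without DMSO 3 it passed as higher (log2 fold change 0.59, adjusted p = 0.000459).

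**Figure D5:**
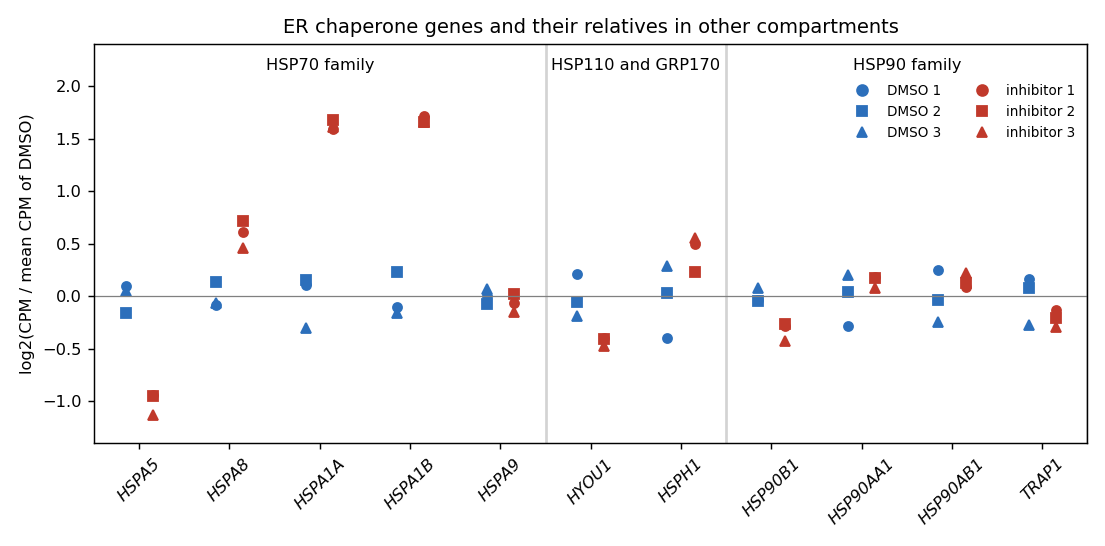
HSPA5, HYOU1 and HSP90B1 beside their relatives of the cytosol and mitochondria, each as log2 of CPM over the mean CPM of the 3 DMSO libraries, with 1 point per library (DMSO blue, inhibitor red, shape by replicate number). The red points of HSPA5 lie near -1, and those of HSPA8, HSPA1A and HSPA1B lie above all blue points of these genes.

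The ratio of counts of an ER chaperone to a relative within 1 library does not depend on how libraries are scaled. HSPA5 over HSPA8 was 0.323, 0.299 and 0.316 in inhibitor 1 to 3 and 1.07, 0.771 and 1.03 in DMSO 1 to 3. The mean log2 ratio was thus -1.68 in the inhibitor libraries and -0.080 in the DMSO libraries, a difference of -1.60, with SDs of 0.0591 and 0.258 over 3 libraries each. HSPA5 over HSPA9 differed by -0.94 on the log2 scale, HYOU1 over HSPH1 by -0.87 and HSP90B1 over HSP90AB1 by -0.48. In all 4 ratios no inhibitor library reached a DMSO library. The exact two-sided permutation test gave p = 0.1 for each (0.1 after Benjamini-Hochberg adjustment over the 4), which is the smallest p that 3 against 3 libraries can give. The 4 ratios were chosen after values were seen, so this test cannot decide whether they differ and no conclusion is drawn from it. Without DMSO 3 the differences were -1.54, -0.95, -1.12 and -0.33 in the same order. Such ratios show unequal change of the 2 genes, not which of them changed, and reads of HSP90B1, PDIA3 and HSPA5 may be shared with pseudogene copies in a way the counts do not show.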

How the data were processed

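Total RNA of HT-1080 cells (3 libraries with the inhibitor, 3 with DMSO) was read as amplicons, per the labels' protocols, and sequencing was on an Ion Torrent Proton. The authors deposited a raw count for each gene symbol in each library. Per the submitters' processing notes the build was hg19, and HTSeq and DESeq2 1.20.0 were used in roles that are not named; for the aligner, no name was given in the sources used here. No molecular identifiers are named, so the limits on low counts cover counting error only.

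Groups and replicate numbers came from the sample labels, and p-values measure the spread between these libraries, which may be in part technical. Genes were kept by filterByExpr of edgeR 4.0.16 (minimum count 10, minimum total 15) in R 4.3.3. Scaling used TMM factors. The quasi-likelihood test compared the groups with Benjamini-Hochberg adjustment over all 11216 tested genes at a threshold of 0.05. The SE was derived as the absolute log2 fold change over the square root of the F statistic. The alternatives were other scalings and filters, DESeq2 1.42.0, limma-voom (limma 3.58.1) with and without library quality weights, a replicate block, removal of each library's GC trend (local regression, span 0.5, GC values for 99.2% of tested genes) and leaving out each library. The edgeR, DESeq2 and limma-voom fits, with the block, GC and weight alternatives, were tested on simulated data.

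The members and gene lists were chosen with earlier results of these data known. All 37 members are accounted for. Outside them, the text names up to 3 genes with the largest change among those that passed in each list, and ERO1A, EIF2AK3, ATF4, DDIT3 and the nearest relatives of the ER chaperones whatever their result. ASNS and the 4 within-library ratios were chosen after values were seen. Promoter windows came from RefSeq (GRCh38.p14), matched by symbol, and motifs were sought as exact letters on both strands. Protein sequences were not used here.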

Additional observations from a re-analysis of the deposited data

How the results depend on the processing

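All 5 genes that passed the test (HSPA5, DNAJB9, ERN1, XBP1 and HERPUD1) passed it in all 9 alternatives that kept every library. HSPA5, ERN1, XBP1 and HERPUD1 also passed in all 6 fits that left out a library, and DNAJB9 in 3 of them. The members that passed, all of them lower, numbered 8 with no filter on low counts, 8 with DESeq2 and 14 with library quality weights, and 4 to 13 when a library was left out, the highest without DMSO 3. Over all genes the count was 831 with no filter, 740 with the GC trend removed, 2606 with quality weights and 99 to 2496 when a library was left out. Of the other ER genes, 2 passed with library totals only, 7 with no filter, 4 with DESeq2, 5 with the GC trend removed, 30 with quality weights and 0 to 31 when a library was left out; the cause was not tested. Library totals only moved the median log2 fold change of all genes from -0.0040 to 0.056, and gave 163 lower and 336 higher calls against 215 and 219.

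The replicate numbers did not pair the libraries: the correlation of deviations from the group means was -0.041, -0.038 and -0.088 for the 3 numbers. With the replicate block, the 5 members passed again, and the counts were 327 over all genes and 0 among the other ER genes. No library correlated best with the library of its own number in the other group.

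Genes with small differences changed sign without passing in any of these fits. The log2 fold change became 0.036 for PDIA3, 0.003 for PDIA6, 0.126 for P4HB, 0.030 for EDEM2 and 0.006 for SEC61B with quality weights. It became 0.047 for PDIA6, 0.048 for EDEM2, 0.049 for EDEM3 and 0.017 for SEC61B with library totals only. With the GC trend removed it became 0.012 for WFS1, 0.012 for EDEM2 and -0.035 for ERP44, which was also at -0.005 with DESeq2 size factors or DESeq2, -0.007 with no filter and -0.006 with a mean count of at least 50. When a library was left out it ranged from -0.135 to 0.215 for DNAJC3, from -0.048 to 0.015 for PDIA6, from -0.216 to 0.195 for P4HB, from -0.123 to 0.218 for ERP44, from -0.323 to 0.124 for UGGT1, from -0.201 to 0.098 for WFS1, from -0.050 to 0.026 for EDEM2, from -0.084 to 0.042 for EDEM3, from -0.128 to 0.089 for SEC61B and from -0.304 to 0.049 for ERO1A. When the forward strand alone was searched, the ER stress element was found in 4 members, against 6 with both strands. With 3 libraries a group and a DMSO library apart from the others, smaller differences than those reported may be missed.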
